A study of Homo sapiens with 6 samples.

Results

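The DNA replication machinery was followed in HCT116 cells as a list of 50 genes, chosen by name for their roles in origin licensing, the replisome and nucleotide supply. All 50 were found by Ensembl identifier among the 60612 genes listed per library, and all 50 passed the filter used for testing, a mean level of 1 FPKM or more. FPKM counts fragments relative to transcript length and to all mapped fragments. The lowest mean of a member was 2.59 FPKM for POLA2, and the highest was 161 FPKM for PCNA.

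HCT116 is an established human colorectal carcinoma line. Of the 6 libraries of poly(A)-selected RNA, 3 were of cells that received a control lentivirus, LV-NC, and 3 of cells that received LV-SNORA28, a lentivirus for overexpression of the H/ACA small nucleolar RNA SNORA28. Both groups thus carried a lentivirus, and samples were collected 72 h after infection. The methods also describe puromycin selection for 72 h of cells with stable SNORA28 overexpression. Whether the sequenced cells were selected in this way is not stated. The sources do not say whether the 3 libraries of a group came from separate cultures, so every p-value measures the spread between these libraries, which may be technical.

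Replication starts when the origin recognition complex, with CDC6 and CDT1, loads the MCM2-7 helicase onto chromatin. CDC45 and the GINS complex turn the loaded helicase into the active form, and the polymerases, the PCNA clamp and its loader RFC then copy both strands. Many of these genes are transcribed under the control of E2F factors as cells enter S phase, so their messages usually move together in cycling cells.

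The labels and the cells were checked first. SNORA28 had 0.92, 0 and 0.64 FPKM in LV-NC, against 15.01, 13.66 and 15.20 FPKM in LV-SNORA28. Of 9 markers of colorectal epithelium, 8 were at 1 FPKM or more in every library, and VIL1 was at most 0.04. The summed epithelial level ran from 797.38 to 885.57 FPKM in LV-NC and from 815.32 to 865.23 in LV-SNORA28. Of 6 fibroblast markers only COL1A1 was present, the sums were 3.23 to 4.52 FPKM in LV-NC and 3.22 to 4.17 in LV-SNORA28, and COL1A2, DCN and LUM were at 0 in all 6 libraries. The 3 endothelial markers summed to at most 0.12 FPKM. Of 4 leukocyte markers CD68 alone exceeded 0.5 FPKM, and their sum was 1.07 to 2.33 FPKM in LV-NC and 2.30 to 4.12 in LV-SNORA28, where PTPRC and CD3E were at 0. Mitochondrially encoded genes held 42.7% to 47.7% of all FPKM in LV-NC and 35.9% to 38.3% in LV-SNORA28, which can shift the FPKM of every other gene. The proliferation marker MKI67 had 56.47, 24.52 and 45.17 FPKM in LV-NC libraries and 35.45, 47.72 and 43.16 FPKM with SNORA28, so the groups overlapped (log2 fold change 0.07, limma adjusted p 0.901).

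Of the 50 replication genes, 4 rose in LV-SNORA28 and none fell at an adjusted p below 0.05 (limma, two-sided, Benjamini-Hochberg over all genes tested). The 4 were MCM6, RFC5, GINS4 and PRIM1, that is, 8% of the members, where 6.81% of the 12076 genes tested were called higher and 2.10% lower. The share of members called was therefore near that of all genes. At an unadjusted p below 0.05, 17 members (34%) were higher and 0 lower, against a background of 22.0% higher. With the fold change above 1.5 and p below 0.05 that the methods of the study state, 2 members (4%) passed, MCM6 and RFC5, against 2.58% of all genes higher. That count was 1 without LV-NC replicate 1 and 4 without LV-NC replicate 3. In 18 members (36%) every LV-SNORA28 library lay above every LV-NC library, a pattern seen in 27.0% of all genes, and in no member was every library lower, against 8.16% of all genes.

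The size of the difference was small outside MCM6. The median log2 fold change of the 50 members was 0.17 (range -0.11 to 1.37), and 41 of them (82%) were above 0. Over all genes tested the median was 0.09 and 66.7% were above 0. All fold changes are differences of log2(FPKM + 1), which understates the change of low genes. After quantile normalization the median of the members was 0.08 with 31 above 0, beside -0.00 over all genes. After scaling to the FPKM sum without mitochondrially encoded genes the member median was 0.15, with 39 above 0, beside 0.06 over all genes. Because RNA was pooled over many cells, more cells in S phase and more message per cell cannot be told apart.

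**Figure D1:**
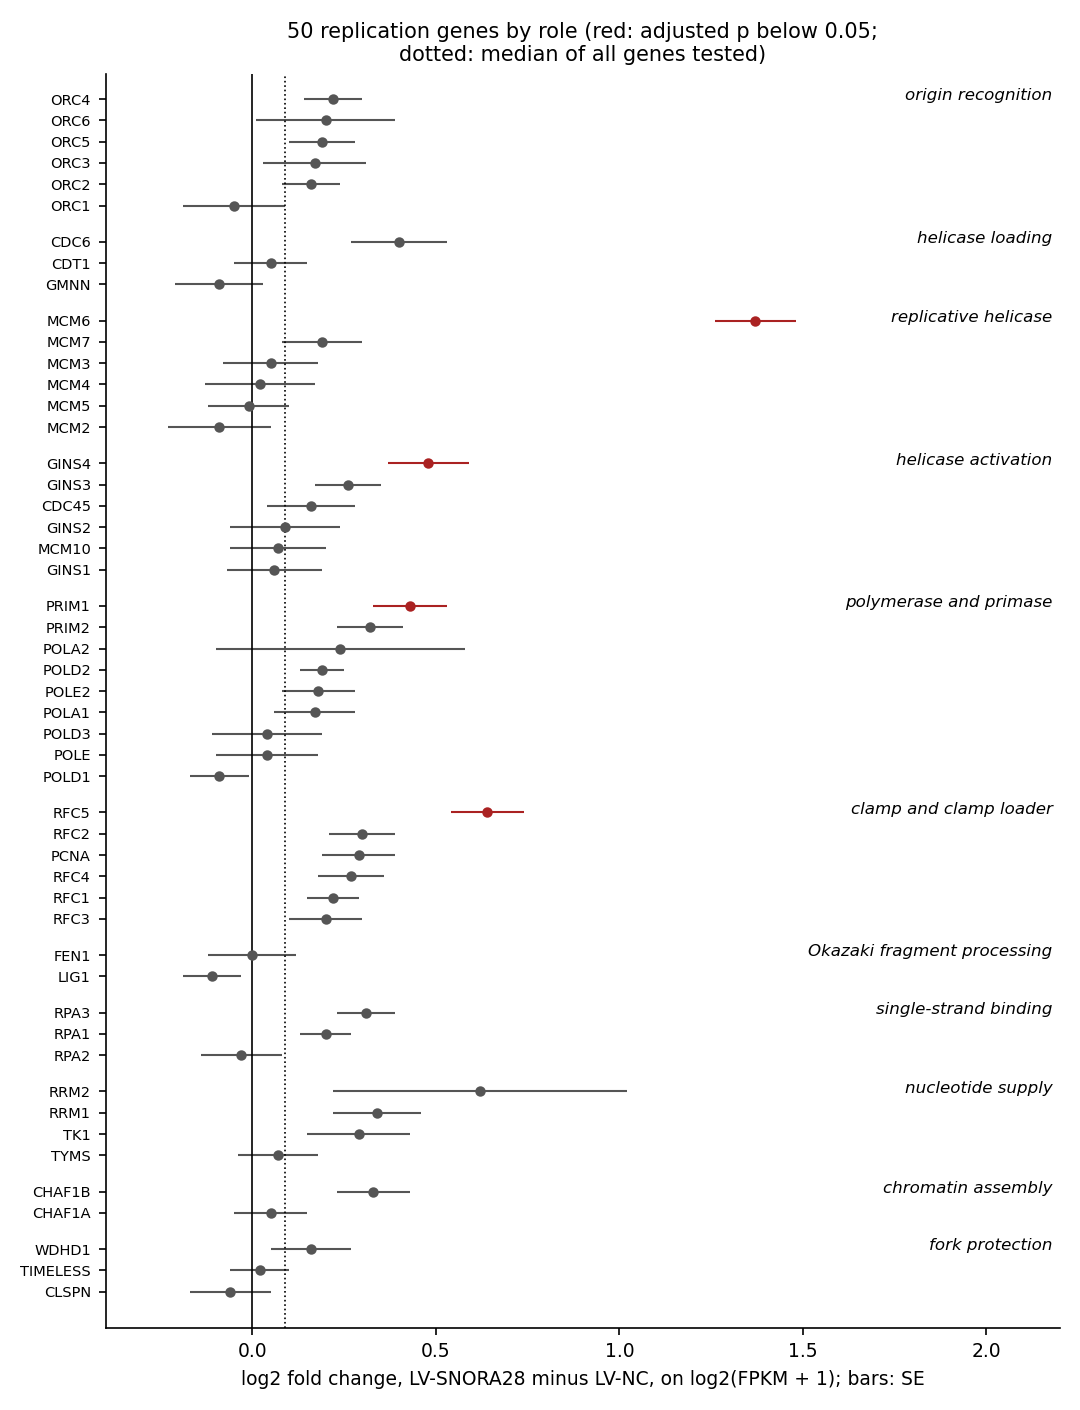
Log2 fold change (LV-SNORA28 minus LV-NC, on log2(FPKM + 1)) of each of the 50 replication genes, grouped by role on the vertical axis, with SE as bars and n = 3 libraries per group. The 4 red points (MCM6, RFC5, GINS4 and PRIM1) have an adjusted p below 0.05, MCM6 stands apart at 1.37, and most of the others lie between 0 and 0.40, near the dotted median of all genes at 0.09.

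MCM6 encodes 1 of the 6 subunits of the replicative helicase, and was the member with the largest change. MCM6 (ENSG00000076003; GRCh38 chromosome 2, 135839626 to 135876443, minus strand) stood at 10.44, 11.43 and 13.88 FPKM in LV-NC and 30.25, 32.35 and 34.26 FPKM in LV-SNORA28. The groups were far apart, with no library near those of the other group. The means of 11.9 ± 1.77 FPKM for LV-NC and 32.3 ± 2.01 FPKM for LV-SNORA28 (SD, n = 3) differed 2.71-fold. The log2 fold change of 1.37 (SE 0.11; limma adjusted p 0.00286) ranked 23 of 12076 genes from the top. MCM6 passed in 13 of 13 other fits, with log2 fold changes from 1.29 to 1.48.

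None of the other helicase subunits was called in limma, also at an unadjusted p below 0.05. MCM2 stood at 32.81, 37.55 and 47.77 FPKM in LV-NC and 32.55, 39.27 and 38.00 in LV-SNORA28. MCM7 stood at 64.20, 72.42 and 87.06 FPKM in LV-NC and 81.38, 87.00 and 84.89 in LV-SNORA28. In both genes the groups overlapped, and LV-NC replicate 3 was the highest library of its group. The log2 fold changes of MCM2, MCM3, MCM4, MCM5 and MCM7 were -0.09, 0.05, 0.02, -0.01 and 0.19, and their limma adjusted p-values ran from 0.323 to 0.964. The sign of MCM2 turned without LV-NC replicate 3, and that of MCM4 turned under both other scalings.

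Set against its partners, a comparison chosen after values were seen, MCM6 hardly varied within a group. The ratio of MCM6 to the geometric mean of the other 5 subunits was 0.297, 0.287 and 0.284 in LV-NC and 0.774, 0.760 and 0.781 in LV-SNORA28. This ratio does not depend on how a library is scaled, and it differed 2.67-fold between the groups (0.290 ± 0.00674 and 0.772 ± 0.0109; SD, n = 3). MCM6 was the lowest of the 6 subunits in each LV-NC library. In each LV-SNORA28 library its FPKM lay above those of MCM4 and MCM5 and below those of MCM2, MCM3 and MCM7.

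**Figure D2:**
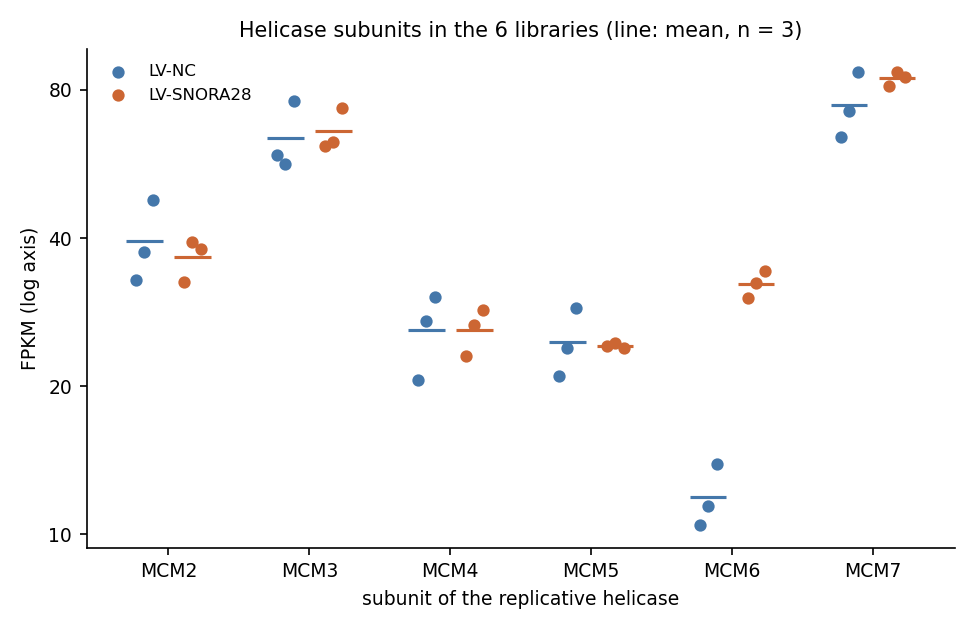
FPKM (log axis) of the 6 helicase subunits in each library, with LV-NC in blue, LV-SNORA28 in orange and a line at the mean (n = 3). The groups overlap for MCM2, MCM3, MCM4, MCM5 and MCM7, while MCM6 lies between 10.44 and 13.88 in LV-NC and between 30.25 and 34.26 in LV-SNORA28.

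The 3′ UTR of MCM6 carries a sequence that no other member has. GTGTCAC, part of the sequence that the methods list for LV-NC, was searched on the transcript strand because earlier results of these data had pointed to it. It occurs once in the MCM6 3′ UTR of 1209 bases (GENCODE canonical transcript), and in 1 of the 50 members (2%), whose 3′ UTRs ran from 67 to 5114 bases with a median of 872. The site is shown with its neighbours, with the searched letters in capitals, as it reads on the transcript (GRCh38, minus strand, chr2:135840664-135840692).
MCM6 3′ UTR: gatggtcctatGTGTCACattcatcacag
Among all genes tested with an annotated 3′ UTR, 1022 of 10538 (9.7%) hold these letters. Their median log2 fold change was 0.17, against 0.08 in the genes without them, and 15.5% of them were called higher, against 6.43%. Because these same data led to the choice of the letters, this contrast is a description and not separate support. No other letters of this length were scored in 3′ UTRs. Genes with longer 3′ UTRs hold any such letters more often, and length was not matched here. For LV-NC the methods list the same sequence as for Sh-NC, which they give beside the shRNA against SNORA28. The sequence listed for LV-SNORA28 is a different one. Whether LV-NC gives rise to a small RNA is not stated in the sources used here. A part of this sequence in the MCM6 difference, or in any other difference between the groups, was not tested.

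Licensing factors, which mark origins and load the helicase, had no call in limma, and ORC4 and CDC6 alone had an unadjusted p below 0.05. At that unadjusted threshold 22.0% of all genes tested were higher. Of the 6 origin recognition genes ORC1 to ORC6, the median log2 fold change was 0.18 (range -0.05 to 0.22). The LV-SNORA28 libraries were all above the LV-NC libraries in ORC2 and ORC4, a pattern seen in 27.0% of all genes tested. ORC4 stood at 3.03, 2.98 and 2.74 FPKM in LV-NC and 3.46, 3.85 and 3.42 in LV-SNORA28 (adjusted p 0.115 in limma). CDC6, the ATPase that joins the origin complex before loading, stood at 9.58, 11.41 and 13.31 FPKM in LV-NC and 15.54, 13.57 and 17.02 in LV-SNORA28. Its groups were apart by a narrow gap between LV-NC replicate 3 and LV-SNORA28 replicate 2, and it was not called (log2 fold change 0.40, SE 0.13, limma adjusted p 0.107). CDT1 had 31.7 ± 4.25 and 32.7 ± 1.46 FPKM (SD, n = 3), and GMNN, which holds CDT1 inactive outside the licensing window, had 9.01 ± 1.42 and 8.36 ± 0.492 FPKM in LV-NC and LV-SNORA28.

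Among the genes that activate the helicase, GINS4 passed. GINS4, a subunit of the GINS complex (ENSG00000147536; GRCh38 chromosome 8, 41529218 to 41545030, plus strand), stood at 2.61, 3.23 and 3.50 FPKM in LV-NC and 4.27, 4.61 and 5.28 in LV-SNORA28. All LV-SNORA28 libraries were above all LV-NC libraries. The log2 fold change of 0.48 (SE 0.11; limma adjusted p 0.0490) was just inside the threshold, and GINS4 passed in 2 of 12 other fits. With any 1 library left out its adjusted p in limma was 0.0736 to 0.146. The ratio of GINS4 to the geometric mean of GINS1, GINS2 and GINS3 was 0.485, 0.533 and 0.495 in LV-NC and 0.683, 0.653 and 0.713 in LV-SNORA28, with no overlap. This ratio was chosen after the values of GINS4 were seen, so it is not separate support for the call. GINS3 had a log2 fold change of 0.26 (limma adjusted p 0.123), and CDC45, MCM10, GINS1 and GINS2 had 0.16, 0.07, 0.06 and 0.09 with overlapping groups.

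Of the 9 polymerase and primase genes, PRIM1 passed, and the median log2 fold change was 0.18. PRIM1, the catalytic subunit of primase (ENSG00000198056; GRCh38 chromosome 12, 56730438 to 56752374, minus strand), stood at 9.08, 9.57 and 9.45 FPKM in LV-NC and 11.26, 14.79 and 13.04 in LV-SNORA28. The LV-NC libraries were close together and the LV-SNORA28 libraries were higher and more spread. The log2 fold change was 0.43 (SE 0.10; limma adjusted p 0.0475), and PRIM1 passed in 3 of 13 other fits, with adjusted p-values from 0.0350 to 0.137. Among the fits with 1 library left out it passed only without LV-SNORA28 replicate 1. The ratio of PRIM1 to the geometric mean of PRIM2, POLA1 and POLA2 was 2.78, 2.65 and 1.69 in LV-NC and 2.61, 2.49 and 2.61 in LV-SNORA28, so the groups overlapped. PRIM1 overlaps NACA (29.80 FPKM) on the same strand, so reads of the shared stretch are uncertain. PRIM2, the other primase subunit, had 4.91 ± 0.444 and 6.38 ± 0.608 FPKM (SD, n = 3) in LV-NC and LV-SNORA28 and did not pass (log2 fold change 0.32, limma adjusted p 0.0837). POLD2, an accessory subunit of polymerase delta, also had groups that did not overlap (log2 fold change 0.19, limma adjusted p 0.101). The catalytic subunits POLA1, POLD1 and POLE had log2 fold changes of 0.17, -0.09 and 0.04, and in each the groups overlapped.

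Among the 6 genes of the clamp and the clamp loader, the median log2 fold change was 0.28, and in 5 every LV-SNORA28 library was above every LV-NC library, beside 27.0% of all genes tested. RFC5, a small subunit of the loader (ENSG00000111445; GRCh38 chromosome 12, 118013588 to 118033130, plus strand), stood at 9.64, 11.33 and 12.42 FPKM in LV-NC and 16.73, 17.97 and 18.71 in LV-SNORA28. The highest LV-NC library was well below the lowest LV-SNORA28 library. The means of 11.1 ± 1.40 and 17.8 ± 1.00 FPKM (SD, n = 3) differed 1.6-fold, with a log2 fold change of 0.64 (SE 0.10) and an adjusted p of 0.0167 in limma. The adjusted p of RFC5 was 0.0666 without LV-SNORA28 replicate 2 and 0.0679 without LV-SNORA28 replicate 3. RFC5 overlaps WSB2 (18.63 FPKM) on the opposite strand, and the strand setting of the quantification was not given. The ratio of RFC5 to the geometric mean of RFC1 to RFC4, also chosen after values were seen, was 0.945, 1.06 and 1.09 in LV-NC. In LV-SNORA28 it was 1.39, 1.33 and 1.41, with no overlap.

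The rest of this role did not pass. RFC1, RFC2, RFC3 and RFC4 had log2 fold changes of 0.22, 0.30, 0.20 and 0.27 with limma adjusted p-values from 0.0837 to 0.244. PCNA, the sliding clamp, stood at 130.08, 140.16 and 164.28 FPKM in LV-NC and 164.64, 187.12 and 178.65 in LV-SNORA28. LV-NC replicate 3 nearly reached LV-SNORA28 replicate 1, and the log2 fold change was 0.29 (SE 0.10; limma adjusted p 0.119). PCNA has processed pseudogenes, and how shared reads were assigned was not given.

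Single-strand binding and the processing of Okazaki fragments had no call in limma. RPA1 and RPA3 alone had an unadjusted p below 0.05, at which 22.0% of all genes tested were higher. RPA3, the smallest subunit of the single-strand binding protein RPA, came closest, at 4.89, 5.57 and 5.39 FPKM in LV-NC and 6.46, 7.31 and 6.62 in LV-SNORA28 (log2 fold change 0.31, limma adjusted p 0.0569). RPA1 also had separate groups (0.20, limma adjusted p 0.127), and RPA2 did not (-0.03, limma adjusted p 0.900). LIG1, the ligase that seals Okazaki fragments, had the lowest log2 fold change of the 50 members, at -0.11 (SE 0.08; limma adjusted p 0.433). FEN1, which trims their flaps, had 56.7 ± 8.90 FPKM in LV-NC and 56.2 ± 3.78 FPKM in LV-SNORA28 (SD, n = 3).

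Nucleotide supply held the member with the largest change after MCM6 and RFC5, but it did not pass. RRM2, the S-phase subunit of ribonucleotide reductase, stood at 10.29, 13.34 and 29.23 FPKM in LV-NC and 28.85, 16.79 and 32.80 in LV-SNORA28. LV-NC replicate 3 lay at the level of LV-SNORA28 replicate 1, and LV-SNORA28 replicate 2 lay near the lower LV-NC libraries. The log2 fold change of 0.62 had an SE of 0.40 (limma adjusted p 0.363), and it was 1.04 without LV-NC replicate 3 and 0.33 without LV-NC replicate 1. RRM1, the large subunit of the same enzyme, stood at 24.40, 29.01 and 30.71 FPKM in LV-NC and 31.21, 36.69 and 39.33 in LV-SNORA28 (log2 fold change 0.34, limma adjusted p 0.120). The ratio of RRM2 to RRM1 was 0.422, 0.460 and 0.952 in LV-NC and 0.924, 0.458 and 0.834 in LV-SNORA28, with overlap. TK1 and TYMS, which supply thymidylate, had log2 fold changes of 0.29 and 0.07 with overlapping groups.

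Chromatin assembly and fork protection had no call in limma. CHAF1B alone had an unadjusted p below 0.05, at which 22.0% of all genes tested were higher. CHAF1B, a subunit of the histone chaperone CAF-1, had 6.34 ± 0.650 and 8.22 ± 0.954 FPKM (SD, n = 3) in LV-NC and LV-SNORA28, with separate groups and a limma adjusted p of 0.101. CHAF1A had a log2 fold change of 0.05. WDHD1, TIMELESS and CLSPN, which keep polymerases and helicase coupled at the fork, had 0.16, 0.02 and -0.06, all with overlapping groups.

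Within each group, single libraries moved most members together. For each library, the level of a gene was set against the mean of the other libraries of its group on the log2(FPKM + 1) scale. In LV-NC replicate 1 the median of the 50 members was -0.25, and 40 members (80%) had their lowest LV-NC value there, against 28.2% of all genes tested. In LV-NC replicate 3 the median was 0.22, and 41 members (82%) had their highest LV-NC value there, against 32.3% of all genes. LV-SNORA28 replicate 1 had a median of -0.13 and held the lowest value of its group for 38 members (76%, against 36.2% of all genes). For all genes tested the medians in these 3 libraries were 0.04, 0.02 and -0.01, close to 0. LV-NC replicate 2 and LV-SNORA28 replicates 2 and 3 had medians of 0.02, 0.04 and 0.08 over the members.

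**Figure D3:**
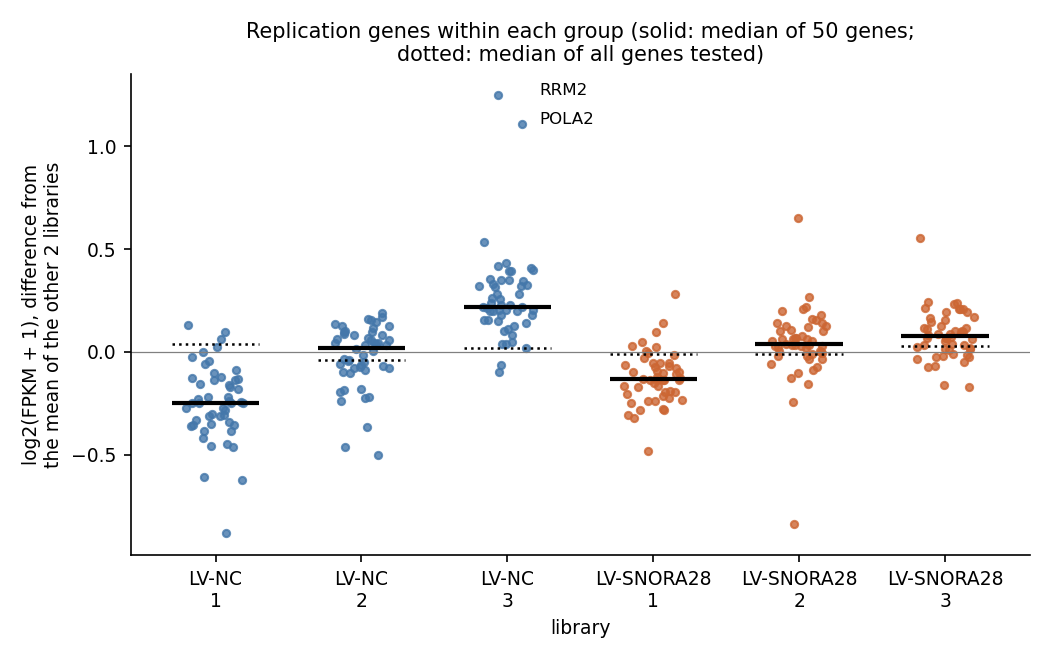
For each library (horizontal axis), the difference of each of the 50 replication genes from the mean of the other libraries of its group on the log2(FPKM + 1) scale, with a solid line at the median of the members and a dotted line at the median of all genes tested. The members sit low in LV-NC replicate 1 (median -0.25) and high in LV-NC replicate 3 (median 0.22), where RRM2 and POLA2 stand apart at 1.25 and 1.11.

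The lean of the members towards LV-SNORA28 rested in part on LV-NC replicate 1. Without that library the median log2 fold change of the members was 0.09 with 32 of 50 above 0, and the median of all genes was 0.10. Without LV-NC replicate 3 it was 0.23 with 47 above 0, where the median of all genes was 0.09. The summed FPKM of the 50 members was 894.5, 1020.5 and 1177.0 in LV-NC and 1114.5, 1190.4 and 1218.8 in LV-SNORA28. The sum of LV-NC replicate 3 lay within the range of the LV-SNORA28 libraries, so the groups overlapped (1031 ± 142 and 1175 ± 53.9, SD, n = 3, ratio 1.14). As a share of the FPKM sum without mitochondrially encoded genes, the members took 0.468%, 0.521% and 0.605% in LV-NC and 0.566%, 0.597% and 0.621% in LV-SNORA28, again with overlap. The number of members called was 2 without any 1 of the LV-NC libraries, 3 without LV-SNORA28 replicate 1, and 1, MCM6, without LV-SNORA28 replicate 2 or 3. Calls over all genes fell as well, from 1076 of 12076 in the main fit. They were 448 to 629 without 1 of the LV-NC libraries and 450 without LV-SNORA28 replicate 1. Without LV-SNORA28 replicate 2 or 3 they were 278 of 12066 and 303 of 12042.

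Some members swung far more than the rest in 1 library. POLA2, the accessory subunit of polymerase alpha, stood at 1.37, 1.49 and 4.24 FPKM in LV-NC and 1.97, 4.02 and 2.43 in LV-SNORA28. It was high in LV-NC replicate 3 and LV-SNORA28 replicate 2 and low elsewhere, and it overlaps ENSG00000285816 (2.17 FPKM) on the same strand. ORC6 stood at 3.30, 4.97 and 6.33 FPKM in LV-NC and 5.66, 6.03 and 5.12 in LV-SNORA28, so LV-NC replicate 1 stood low, and its log2 fold change of 0.20 was -0.0049 without that library. POLE, the catalytic subunit of polymerase epsilon, stood at 8.17, 5.97 and 9.05 FPKM in LV-NC and 7.66, 8.02 and 7.95 in LV-SNORA28, with LV-NC replicate 2 low. MCM4 stood at 20.55, 27.16 and 30.35 FPKM in LV-NC and 23.05, 26.64 and 28.55 in LV-SNORA28, again lowest in LV-NC replicate 1. The ratio of the highest to the lowest library had a median over the members of 1.30 in LV-NC and 1.14 in LV-SNORA28, against 1.21 and 1.17 over the 12036 genes tested that had no value of 0. It exceeded 2 for RRM2 (2.84) and POLA2 (3.09) in LV-NC and for POLA2 (2.04) in LV-SNORA28.

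Promoter sequences were read next, since many replication genes are known E2F targets. RefSeq promoters of 300 bases (GRCh38.p14, 250 before the start site and 50 after it) were found for 44 of the 50 members. MCM4, MCM5, GINS4, POLD3, RPA2 and RPA3 had no entry. The letters TTTCGCGC, TTTGGCGC, TTTCCCGC or TTTGCCGC, forms of the E2F motif, were searched on both strands. They occur in 20 of 44 member promoters (45.5%), against 3.99% of 27305 genes with a promoter and 6.98% of 8814 genes tested. CCAAT, the letters of the NF-Y box, occurs on either strand in 61.4% of members, 39.7% of all genes and 43.2% of genes tested. TTTGAA or TTCGAA, forms of the CHR element of late cell-cycle genes, occurs in 2 members, MCM6 and RRM1 (4.55%). The share was 19.5% of all genes and 14.4% of genes tested. A match is a description of the letters and not a site.

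The promoters of the called genes with an entry are shown because the genes differ in these letters. Capitals mark the searched letters. MCM6 (minus strand, chr2:135876394-135876693) holds TTCGAA, 2 stretches in which E2F matches overlap, and 2 ATTGG, the reverse complement of CCAAT. In each stretch TTTGGCGC overlaps GCGCGAAA, the reverse complement of another E2F form, TTTCGCGC. RFC5 (plus strand, chr12:118016453-118016752, within the GENCODE span of the gene) and PRIM1 (minus strand, chr12:56752274-56752573) hold no E2F match and 1 CCAAT match each.
MCM6: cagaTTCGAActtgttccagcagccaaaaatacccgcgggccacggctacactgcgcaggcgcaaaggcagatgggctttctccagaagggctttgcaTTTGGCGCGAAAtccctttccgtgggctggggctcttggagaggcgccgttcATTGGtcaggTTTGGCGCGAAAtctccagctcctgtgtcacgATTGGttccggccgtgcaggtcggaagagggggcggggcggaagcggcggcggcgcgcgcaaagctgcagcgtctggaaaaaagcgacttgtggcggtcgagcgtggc
RFC5: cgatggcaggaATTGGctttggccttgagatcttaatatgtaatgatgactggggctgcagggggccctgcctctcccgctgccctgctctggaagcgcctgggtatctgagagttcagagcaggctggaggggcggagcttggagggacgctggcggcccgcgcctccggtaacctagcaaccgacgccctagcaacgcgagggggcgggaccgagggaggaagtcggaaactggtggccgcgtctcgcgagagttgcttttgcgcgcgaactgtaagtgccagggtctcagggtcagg
PRIM1: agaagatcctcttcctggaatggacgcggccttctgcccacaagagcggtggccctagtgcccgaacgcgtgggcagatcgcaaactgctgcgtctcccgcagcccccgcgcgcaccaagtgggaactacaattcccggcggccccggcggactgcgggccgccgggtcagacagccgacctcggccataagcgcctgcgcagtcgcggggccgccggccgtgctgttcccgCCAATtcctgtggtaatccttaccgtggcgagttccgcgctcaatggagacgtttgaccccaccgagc

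Partners of MCM6 that were not called, and PCNA and CDC6, also hold E2F letters. Windows around 1 match each are shown, with the match in capitals. They are from MCM2 (plus strand, chr3:127598401-127598436, where a match and its reverse complement overlap), MCM3 (minus strand, chr6:52284897-52284928), MCM7 (minus strand, chr7:100101565-100101596), PCNA (minus strand, chr20:5126662-5126693) and CDC6 (plus strand, chr17:40287874-40287905).
MCM2: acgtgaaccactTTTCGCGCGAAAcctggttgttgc
MCM3: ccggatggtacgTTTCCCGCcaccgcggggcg
MCM7: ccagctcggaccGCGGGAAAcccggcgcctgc
PCNA: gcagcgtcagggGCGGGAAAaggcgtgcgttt
CDC6: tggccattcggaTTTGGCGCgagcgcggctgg
The 20 members with E2F letters had a median log2 fold change of 0.13, and 1 was called. The 24 without them had a median of 0.20, and 2 were called. Beside these, all genes tested had a median of 0.09, and 6.81% were called higher. Every LV-SNORA28 library was higher in 4 of the 20 and in 12 of the 24, beside 27.0% of all genes tested, and the difference between these counts was not tested.

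Other genes of the pathway, a list of 54 regulators and accessory factors, were read from the same fit. Of the 52 that passed the filter, 7 (13.5%) rose and 0 fell, beside 6.81% and 2.10% of all genes, and the median log2 fold change was 0.21. RNASEH2A, the catalytic subunit of RNase H2, which removes RNA from DNA, stood at 10.49, 13.38 and 12.41 FPKM in LV-NC and 21.88, 23.22 and 21.25 in LV-SNORA28. The groups were far apart, with a log2 fold change of 0.83 (SE 0.09) and an adjusted p of 0.00772 in limma. RNASEH2C of the same enzyme (0.67), the topoisomerase TOP2A (0.65), the ribonucleotide reductase subunit RRM2B (0.63), the S-phase kinase CDK2 (0.56) and the histone chaperone ASF1A (0.39) also rose, with limma adjusted p-values from 0.00880 to 0.0308. RNASEH2C had a mean of 0.99 FPKM in LV-NC and passed the filter only through its 2.19 FPKM in LV-SNORA28. TOP2B was the remaining gene called. Without LV-SNORA28 replicate 2 the count was 4, where 278 of 12066 genes tested were called.

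A list of 37 genes of E2F, RB and cell-cycle transcription was read from the same fit. Beside transcription factors it holds cyclins, kinases, kinase inhibitors and chromatin proteins. Of the 36 that passed the filter, 0 rose and 1 fell, beside 6.81% and 2.10% of all genes tested. The median log2 fold change was 0.11, beside 0.09 over all genes, and the range was -0.91 for MYC to 1.22 for CDKN1A. Neither MYC nor CDKN1A was called (limma adjusted p 0.468 and 0.134). At the threshold of the study, 1 gene of the list (2.78%), CDKN1A, was higher and 0 were lower, against 2.58% of all genes higher. At an unadjusted p below 0.05 there were 10 higher (27.8%, beside 22.0% of all genes) and 2 lower, so the list lay near the background. The gene that fell was CCND1, cyclin D1, which releases E2F from RB. It stood at 175.78, 176.95 and 190.37 FPKM in LV-NC and 122.47, 124.29 and 123.61 in LV-SNORA28, with a log2 fold change of -0.55 (SE 0.06) and an adjusted p of 0.00583 in limma. Its groups did not overlap. Without LV-SNORA28 replicate 3 the list had 2 calls, where 303 of 12042 genes tested were called.

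Genes of mitosis, which are expressed later in the cycle, were read for comparison. Of 36 mitosis genes 15 (41.7%) rose and 0 fell, beside 6.81% and 2.10% of all genes tested. Their median log2 fold change was 0.35, beside 0.09 over all genes, and in 29 (80.6%) every LV-SNORA28 library was higher, beside 27.0% of all genes. Of the 15, PRC1, a microtubule bundler of the spindle midzone, had the largest log2 fold change (0.99, limma adjusted p 0.0292), followed by NUF2 (0.56), CCNB1 (0.52), CDK1 (0.50), ECT2 (0.48) and AURKA (0.48). The count of mitosis genes called was 4 to 9 without any 1 of the LV-NC libraries or LV-SNORA28 replicate 1. It was 1 without LV-SNORA28 replicate 2 and 2 without LV-SNORA28 replicate 3. Calls over all genes also fell, from 1076 of 12076 in the main fit to 448 to 629 without 1 of the former libraries. Without LV-SNORA28 replicate 2 or 3 they were 278 of 12066 and 303 of 12042. A difference between the lists was not tested.

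**Figure D4:**
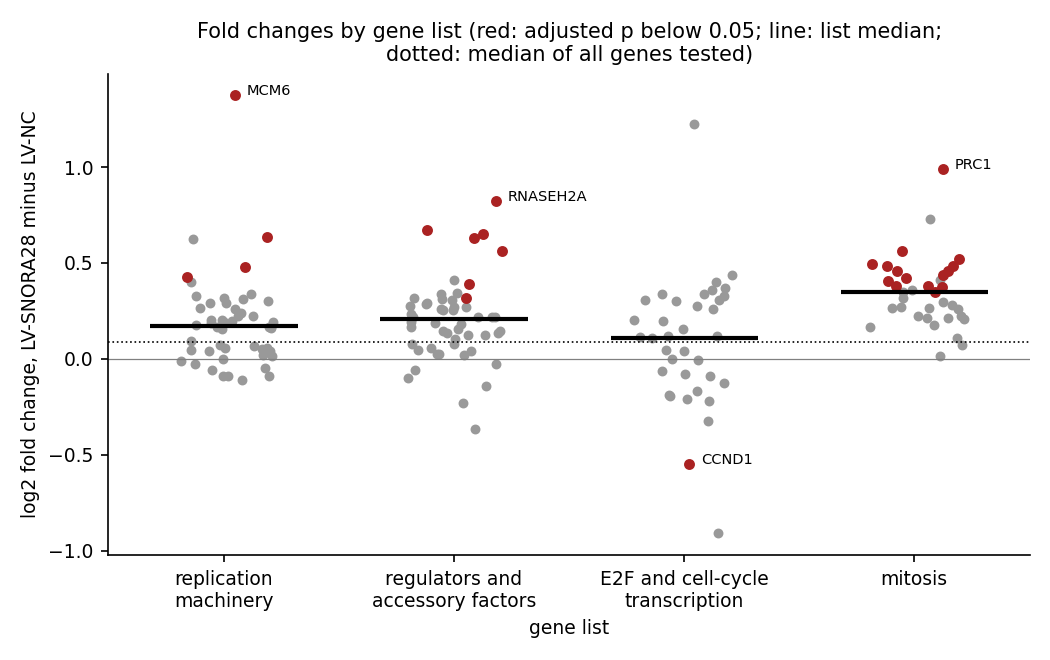
Log2 fold change (LV-SNORA28 minus LV-NC, on log2(FPKM + 1)) of the genes of 4 lists, each point a gene, with a line at the list median and a dotted line at the median of all genes tested (0.09). Red points have an adjusted p below 0.05, of which the replication machinery has 4, the regulators 7, the E2F and cell-cycle transcription list 1 and the mitosis list 15.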

How the data were processed

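Poly(A) RNA of 3 LV-NC and 3 LV-SNORA28 samples of HCT116 cells was sequenced as stranded (dUTP), paired reads of 150 nt, per the labels, and the titles of the samples gave the groups. For each library the authors deposited FPKM values by Ensembl gene identifier. The submitters' processing notes name cutadapt 1.9, HISAT2 2.2.1, StringTie 2.1.6 and the build hg38. The annotation release, the strand setting and the mapped totals were not given in the sources used here, so depth is unknown and no counting interval is attached to a value. FPKM is relative to all mapped fragments, so a change in abundant transcripts shifts all other values.

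Symbols came from GENCODE 44 on GRCh38 for 60401 of 60612 identifiers. Genes whose mean level reached 1 FPKM (12076) were fitted as log2(FPKM + 1) in limma 3.58.1 (R 4.3.3; lmFit, then eBayes with trend, all 6 libraries, no covariate), with two-sided p-values adjusted by Benjamini-Hochberg over all genes tested. The fit was tested on simulated data with noise drawn separately for each gene. These lack the swings shared by the members, so they do not show how the fit handles such swings. Genes named were members with an adjusted p below 0.05, the 5 members with the largest and the 5 with the smallest log2 fold change, the 5 with the largest single-library swing, SNORA28, MKI67, and up to 6 called genes from each other list. Other members are named to complete a role, and these and the ratios to complex partners were chosen after values were seen. The members, lists and 7-mer were chosen with earlier results of these data known, so no test over a list was made. An exact two-sided permutation test of 3 against 3 libraries cannot go below p = 0.1 and was not used.

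Alternatives were a fit without a trend, quantile normalization, scaling to the FPKM sum without mitochondrially encoded genes, no filter, a mean of at least 5 FPKM, a block for the replicate number, a pseudocount of 0.1, a fold change above 2, and each library left out in turn. Leaving out MCM6 was added after seeing the data. Promoters and motifs were read in Python 3.11.15.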

Additional observations from a re-analysis of the deposited data

How the results depend on the processing

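The 4 members called became 2 (MCM6 and RFC5) without a mean-variance trend, with quantile normalization, with scaling to the FPKM sum without mitochondrially encoded genes and without a filter, and were 17 at an unadjusted p below 0.05. With 1 library left out there were 1 to 3. MCM6 passed in all 13 of these other fits, and RFC5 in 11. The 2 members past the study's own threshold became 1 after quantile normalization and 1 at a fold change above 2, and 1 to 4 with 1 library left out. Among all genes tested, the balance of calls was 451 higher and 375 lower under quantile normalization and 615 higher and 263 lower under the mitochondrial scaling. The regulators called became 4 without a filter and 4 to 5 with 1 library left out, and the E2F list 1 to 2. The mitosis genes called became 4 without a filter and 1 to 9 with 1 library left out. Calls over all genes fell from 1076 of 12076 to 397 of 32761 without a filter, and to 278 to 629 with 1 library left out. For these changes the cause was not tested. The median of the members stayed between 0.08 and 0.23 and the ratio of their sums between 1.07 and 1.23, and without MCM6, chosen after seeing the data, they were 0.17 and 1.12.

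Of 205 values for 16 single genes, 171 kept direction and side of the threshold, 22 dropped below it and 12 changed sign, all in genes without a call. Quantile normalization gave -0.06 for MCM4 and -0.06 for POLE, and the mitochondrial scaling -0.011 for MCM4. With 1 library left out, MCM2 ran from -0.21 to 0.05, MCM4 from -0.14 to 0.13, ORC6 from -0.0049 to 0.38, POLE from -0.11 to 0.15, CLSPN from -0.13 to 0.02 and MKI67 from -0.27 to 0.32. Over all genes tested, same-numbered libraries of the groups did not deviate together (correlations across genes -0.0441, 0.0914 and 0.00983). The members, however, were low in replicate 1 of both groups (medians -0.25 in LV-NC and -0.13 in LV-SNORA28). They were higher in replicate 3 of both (0.22 and 0.08). Whether the numbers pair the libraries is not stated in the sources, and pairing was not tested for the members. With the replicate number as a block 4 members were called (MCM6, RFC5, GINS4 and RRM1, with PRIM1 at a limma adjusted p of 0.0643). The block fit also called 4 regulators and 8 mitosis genes, beside 510 of 12076 genes tested. Depth is unknown, so the precision of low members such as POLA2 is known only from the spread between libraries.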
